A study of Sus scrofa with 70 samples.

Results

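The kallikreins, prostatic acid phosphatase (ACP3) and transglutaminase 4 (TGM4) were described across 5 reproductive organs of the boar. Members were taken by name from the merged annotation. They were every gene named KLK with a number, ACP3 under its current or older symbol (ACPP), and TGM4. The rule found 13 of 42873 annotated genes, namely 12 kallikreins and ACP3. No gene carried the name TGM4, KLK2, KLK3 or KLK13. Of the 13 genes, 12 had a transcript above 0 in at least 1 library, and 2, KLK4 and ACP3, reached a TPM (transcripts per 1000000, corrected for length) of 1 in at least 3 libraries.

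Prostate gland, vesicular gland, bulbourethral gland, epididymis and testis were taken from male pigs aged 12 months of 2 breeds, BMI, the Banna mini-pig inbred line, and DSE, the Diannan small-ear pig. No treatment or transgene was involved, and the groups differed in breed and gland alone. RNA-seq gave 3 libraries for each breed and gland, 30 in all, and PacBio Iso-seq of full-length transcripts gave 1 library for each of the 10 groups. The labels do not say which libraries came from 1 animal, so p-values measure the spread between these libraries. In whole glands, fewer cells of a type and less RNA per cell cannot be told apart.

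Kallikreins are secreted serine proteases made as inactive precursors. In the human prostate, KLK3 (prostate-specific antigen) and KLK2 are secreted under androgen control, and KLK3 cuts semenogelins so that the coagulated semen turns liquid. ACP3 is the acid phosphatase of human seminal plasma, and it also removes phosphate from AMP to give adenosine. TGM4 is the prostate transglutaminase, and in rodents it crosslinks vesicular gland proteins into the copulatory plug.

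TPM values add up to the same total in each library, so a gland that makes a few transcripts in great amount leaves less for all others. The 10 highest genes took 42.4 to 58.8% of the TPM in prostate gland, 49.9 to 67.6% in vesicular gland, 28.05 to 43.8% in bulbourethral gland, 9.94 to 26.6% in epididymis and 12.7 to 19.97% in testis. The deposited TPM carry no read depth. The deposited Iso-seq isoforms held 231413 to 458697 full-length reads per library, which are the reads kept in the final isoforms and not the whole depth of a library. Reads per 1000000 of these reads are written as RPM. Some libraries held transcripts typical of another gland. BMI prostate gland replicate 2 held a sum of 301319 TPM of the 4 vesicular gland markers that had a value, against a median of 9.12 over the 6 prostate libraries, and a median of 460209 over the vesicular gland libraries. BMI epididymis replicate 1 held 5383 TPM of the same markers. The epididymis markers, 8 genes with a value, ran from 1670 TPM in BMI epididymis replicate 1 to 42223 in BMI epididymis replicate 2. The markers of the prostate epithelium, 5 genes, had a sum of 88795 to 179076 TPM in the 6 prostate libraries, against at most 969 in any other gland. MSMB alone made up most of this sum, at 88607 to 178304 TPM, so the sum says little about the other genes. All 5 had a median of at least 1 TPM in prostate gland, but SPDEF was higher in bulbourethral gland, as given below. The lowest sum was that of BMI prostate gland replicate 2.

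Few kallikrein transcripts were found in the boar prostate. The 11 kallikreins with a value together gave a median of 0.0425 TPM and at most 0.587 TPM in the 6 prostate libraries. In testis the same sum had a median of 5.62 TPM and a range of 4.80 to 20.8, which lay above every library of the other glands. The epididymis came next by its median of 0.546 TPM, with a range of 0.150 to 1.65 TPM. The bulbourethral gland had a median of 0.144 and the vesicular gland of 0.0446 TPM. The ranges of epididymis, bulbourethral gland, vesicular gland and prostate overlapped. Of 66 values in prostate gland, 11 genes in 6 libraries, 8 were above 0, and they belonged to 4 genes, KLK1, KLK6, KLK7 and KLK14. The largest of them was 0.371 TPM, for KLK7 in DSE prostate gland replicate 3.

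**Figure D1:**
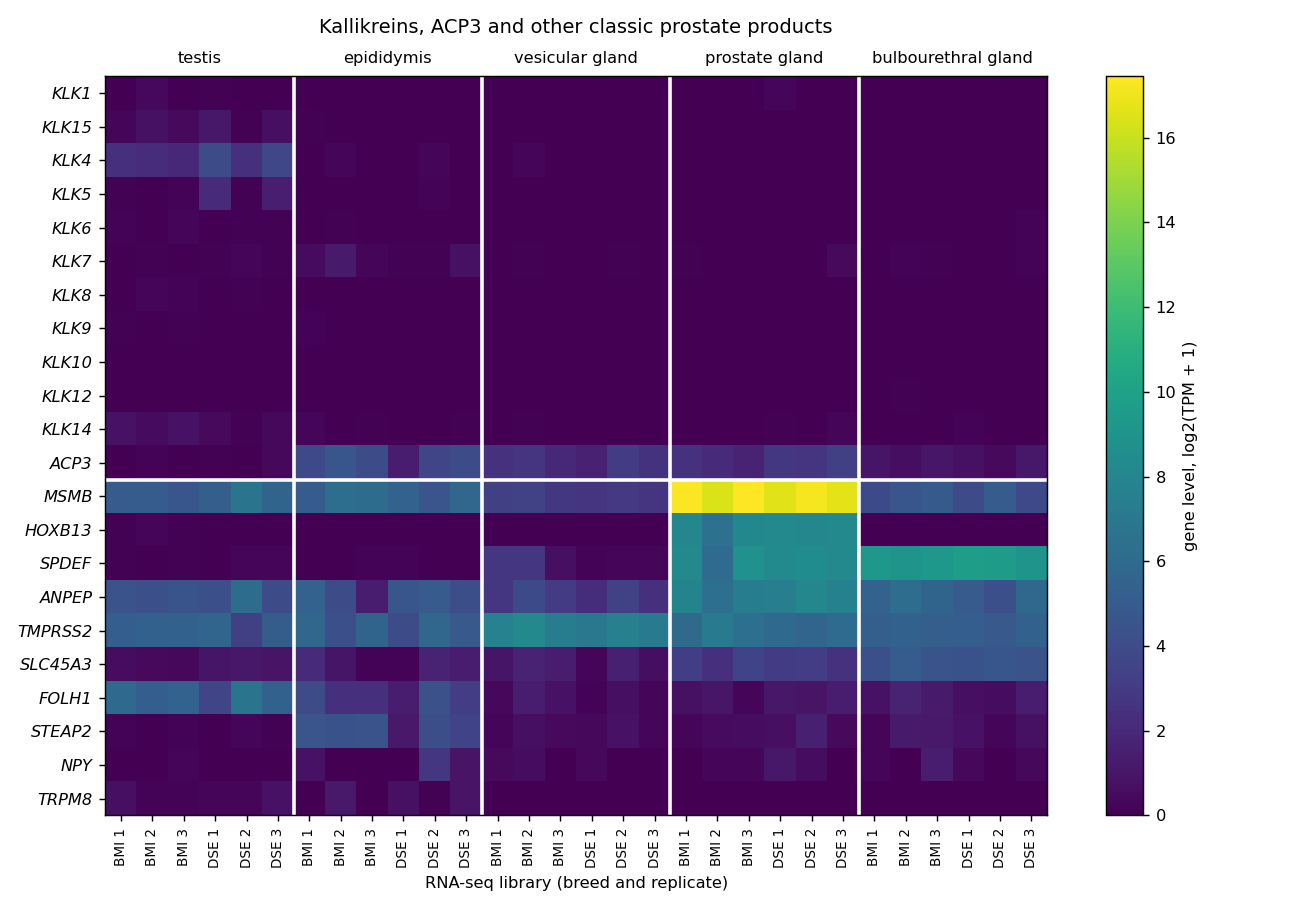
Levels of 11 kallikreins, ACP3 and 10 other classic prostate products in the 30 RNA-seq libraries, as log2(TPM + 1), with columns grouped by gland and breed. In prostate gland every kallikrein row is at or near 0, while MSMB lies between 88607 and 178304 TPM and HOXB13 between 92.7 and 297 TPM. KLK11 is left out because it has no value.

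The kallikreins lie side by side on the minus strand of chromosome 6, in an interval of 154824 bases, chr6:55570635-55725458 in Sscrofa11.1. They run in the order KLK1, KLK15, KLK4, KLK5, KLK6, KLK7, KLK8, KLK9, KLK10, KLK11, KLK12 and KLK14. The interval also holds 2 unnamed genes on the same strand, ENSSSCG00000035586 at chr6:55703622-55706045 and ENSSSCG00000059691 at chr6:55706525-55713619. Both overlap the gene that RefSeq places at chr6:55703414-55712976 and names KLK13. Their highest values in any library were 0.0826 and 0.0813 TPM. A further 2 unnamed genes on the minus strand, ENSSSCG00000045200 at chr6:55543071-57457773 and ENSSSCG00000045482 at chr6:55594770-57180678, run across most of the interval and far past it. In prostate gland they had 11.9 to 20.5 and 1.76 to 4.41 TPM. In the RefSeq annotation of the same assembly, 13 genes overlap the interval, and all are named KLK. No RefSeq gene of the pig is named KLK2 or KLK3, so the absence of these names is not peculiar to the annotation that was quantified.

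KLK4, whose product digests enamel proteins in developing teeth and which is androgen regulated in the human prostate, was the only kallikrein that passed 1 TPM in at least 3 libraries. The gene, ENSSSCG00000023074, spans chr6:55589999-55617244. In testis it reached 4.43, 3.74 and 3.12 TPM in the 3 BMI libraries and 15.95, 4.43 and 12.3 TPM in the 3 DSE libraries. It was listed at 0 in all 6 prostate and all 6 bulbourethral libraries. A value above 0 occurred in 2 epididymis libraries, at 0.157 and 0.168 TPM, and in 1 vesicular gland library, at 0.266 TPM. The 6 testis libraries thus lay above all 24 others.

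The mean in testis was 7.33 ± 5.41 TPM (SD, n = 6). KLK4 passed the filter on low values, 1 TPM in at least 3 libraries, only through its testis libraries, so its level in testis against the other glands is given as a description with no test.

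The full-length reads of KLK4, 4 in all, did not start where the Ensembl gene starts. Iso-seq found 2 isoforms, and each was seen with 2 full-length reads, all of them in DSE testis, whose deposited isoforms held 457778 reads. The first, PB.15966.40, has 6 exons, 1277 bases and a predicted coding sequence of 777 bases. The second, PB.15966.41, has 5 exons, 1120 bases and a predicted coding sequence of 480 bases. Both start at position 55617244, which is 22950 bases upstream of the Ensembl start at 55594294 and 579 bases past the 3′ end of KLK5, the next gene. The last 4 exons of the 6-exon Ensembl transcript are shared, 3 of them with both ends. Its first exons, which include that with the start codon, are replaced. RefSeq models of pig KLK4 have an outermost start at 55617514, and all 11 of their exons share at least 1 end with an exon of the gene in the merged annotation.

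The junctions that tell the forms apart are shown as 15 bases of the upstream exon in lower case and 15 bases of the shared exon, whose first base is 55592319, in capitals. All were read from Sscrofa11.1 on the minus strand, in the direction of transcription.
Ensembl KLK4: tccttggtatcacagGATCCCTCGCCTTCA
6-exon testis isoform: gcaagtccacgcaggGATCCCTCGCCTTCA
5-exon testis isoform: gacacgtccggagagGATCCCTCGCCTTCA
The upstream exon ends at 55593587 in the Ensembl transcript, at 55599918 in the 6-exon isoform and at 55617125 in the 5-exon isoform.

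RNA-seq levels in testis were assigned mainly to these Iso-seq isoforms, and in 4 of 6 libraries partly to transcripts with the Ensembl start. In testis, PB.15966.40 had 3.25, 2.75 and 2.45 TPM in BMI and 7.09, 3.84 and 6.67 TPM in DSE libraries. PB.15966.41 had 1.18, 0.493 and 0.674 TPM in BMI and 8.16, 0.303 and 5.12 TPM in DSE. The 6-exon Ensembl transcript was listed at 0 in the 3 BMI libraries and had 0.710, 0.287 and 0.505 TPM in DSE. A second Ensembl transcript had 0.489 TPM in BMI replicate 2 alone. The 5-exon form was high in DSE replicates 1 and 3 alone, while the 6-exon form differed less between libraries. Of the mean of 7.33 TPM, 0.332 was assigned to these Ensembl transcripts. The traces in epididymis and vesicular gland were all assigned to the 5-exon form.

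**Figure D2:**
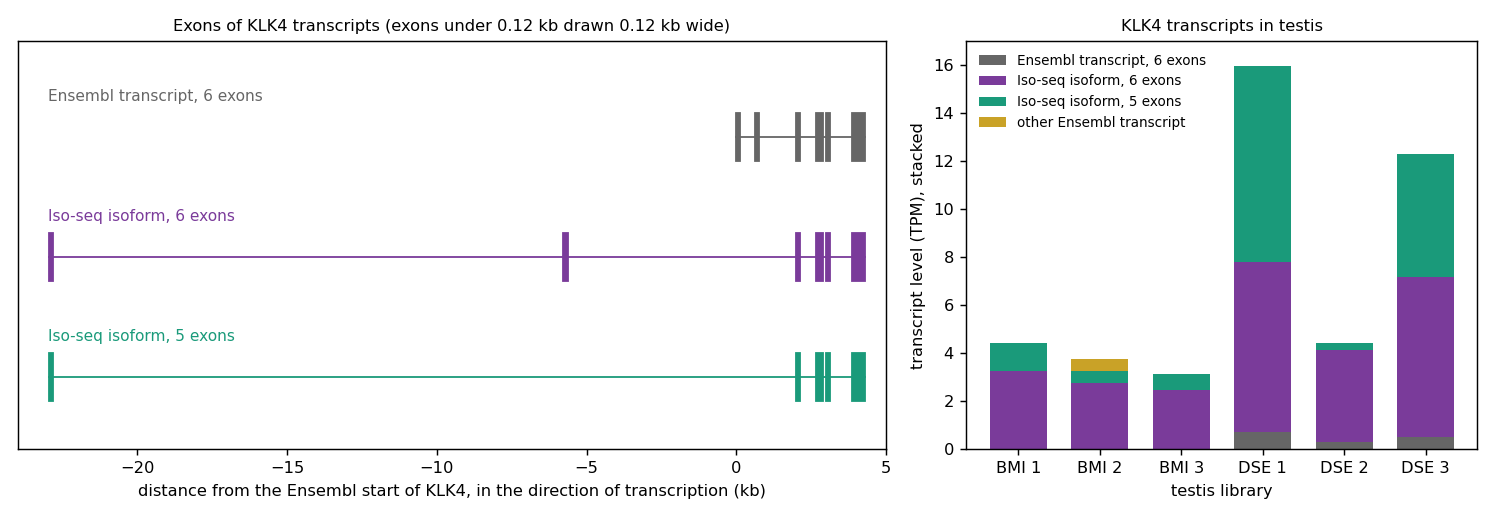
Left, exons of 3 KLK4 transcripts by distance in kb from the Ensembl start, with both Iso-seq isoforms starting 22950 bases upstream. Right, TPM of each KLK4 transcript stacked for the 6 testis libraries, where DSE replicates 1 and 3 reach 15.95 and 12.3 TPM and the Iso-seq isoforms make up most of each bar.

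The 250 bases before the Ensembl start and before the outermost RefSeq start are shown, because the Iso-seq reads of testis began near the latter. Both are on the minus strand of Sscrofa11.1, 5′ to 3′, and any motif match would be in capitals.
KLK4 distal start, chr6:55617515-55617764: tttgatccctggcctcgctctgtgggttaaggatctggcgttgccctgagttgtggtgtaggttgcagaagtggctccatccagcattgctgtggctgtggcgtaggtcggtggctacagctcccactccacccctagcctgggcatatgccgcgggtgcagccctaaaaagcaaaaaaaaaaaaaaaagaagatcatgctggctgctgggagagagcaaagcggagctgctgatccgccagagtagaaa
KLK4 Ensembl start, chr6:55594295-55594544: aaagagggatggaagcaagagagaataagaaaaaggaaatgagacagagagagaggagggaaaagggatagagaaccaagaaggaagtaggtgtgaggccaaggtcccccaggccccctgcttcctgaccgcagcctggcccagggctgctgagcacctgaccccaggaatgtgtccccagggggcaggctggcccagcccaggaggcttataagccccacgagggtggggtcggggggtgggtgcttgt
The distal window ends at the base before the outermost RefSeq start, 55617514, and not at the Iso-seq start, 55617244. The bases between these positions, which are transcribed in the RefSeq model, were neither shown nor searched. Of its bases, 79.6% are masked as repeats in the assembly, against 38.4% in the Ensembl window and a mean of 23.4% over the windows of 41257 gene starts. The TATA box (TATAAA), the CCAAT box (CCAAT), the core of the cAMP response element (TGACG), the GC box (GGGCGG) and a hexamer of the androgen response element (AGAACA) were searched on both strands, and neither window holds a match. Among all gene starts, 15.04, 32.5, 15.7, 29.3 and 14.7% of such windows hold them, in the same order.

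Between the breeds, KLK4 in testis was 10.9 ± 5.89 TPM in DSE and 3.76 ± 0.653 TPM in BMI (SD, n = 3 each). DSE replicate 2 lay at the level of BMI replicate 1, at 4.433 against 4.429 TPM, and the other 2 DSE libraries were higher than all BMI libraries. The difference of log2(TPM + 1) was 1.18 (SE 0.240, limma, Benjamini-Hochberg adjusted p = 0.00196). A difference was called at an adjusted p below 0.05 and a size of at least 1. Of the 19796 genes tested, 1.1% were called higher and 3.68% lower in DSE testis. This call was lost with a pseudocount of 0.1 TPM (adjusted p = 0.182), in a fit of the testis libraries alone (adjusted p = 0.389) and without DSE testis replicate 1, where the difference was 0.84. The exact permutation test of 3 against 3 libraries gave p = 0.1, the smallest it can give. The error of the first fit pools all glands, among them those where KLK4 is at 0. DSE testis replicate 2 stood apart in testis markers, with 18217 TPM of the spermatid gene PRM1 against 46809 to 71826 in the other 5, and 42359 TPM of the Leydig cell gene INSL3 against 11447 to 23381. Without DSE testis replicate 2 the breed difference of KLK4 was 1.67. The part of that library's makeup in the difference was not tested.

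Of the remaining kallikreins, KLK5, KLK7 and KLK15 passed 1 TPM in 2, 1 and 1 libraries, and the others in none. KLK5, ENSSSCG00000034792 at chr6:55617823-55630036, is a protease of the outer skin that activates other kallikreins. In testis it had 0.0978, 0.0449 and 0.125 TPM in BMI and 3.13, 0.0519 and 1.80 TPM in DSE. The 2 DSE libraries with high KLK5 were those with high KLK4. WFDC2, an epithelial protease inhibitor of the WAP family, had 9.46 and 7.81 TPM in the same 2 libraries and at most 0.452 in the other testis libraries.

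KLK15 and KLK14 also had their highest levels in testis. KLK15, a kallikrein that can activate the KLK3 precursor in man, had 0.203, 0.745 and 0.346 TPM in BMI and 1.13, 0.0720 and 0.663 TPM in DSE testis. Outside testis it was above 0 in 2 libraries, at 0.0846 and 0.0474 TPM. KLK14, a trypsin-like protease that activates other kallikreins, had 0.799, 0.430 and 0.807 TPM in BMI and 0.387, 0.0713 and 0.325 TPM in DSE testis. The 3 BMI libraries lay above the 3 DSE libraries for KLK14, whereas the breeds overlapped for KLK15. In a fit of 35552 genes without the filter, the log2 difference of prostate gland minus testis was -0.47 for KLK14 and -0.57 for KLK15. Both were under the size of 1 and not called, where 20.3% of genes were called lower. The same difference of KLK5 was -0.66, also not called. These genes were taken up because they are highest in testis, and the error pools glands where they are at or near 0. The differences are therefore given as a description with no test.

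KLK7, which cleaves the corneodesmosomes of skin, had its highest levels in epididymis. It reached 0.416, 1.43 and 0.210 TPM in BMI and 0.0675, 0.0553 and 0.710 TPM in DSE epididymis. Only BMI replicate 2 passed 1 TPM, the library with the highest sum of epididymis markers. Elsewhere KLK7 ran from 0 to 0.371 TPM, so the lower epididymis libraries overlapped with the other glands. KLK1, the tissue kallikrein that releases kinins, had 0.286 and 0.0906 TPM in 2 testis libraries, 0.183 TPM in DSE prostate gland replicate 1 and 0 in the other 27. KLK6, KLK8, KLK9, KLK10 and KLK12 never passed 0.190 TPM and were above 0 in 10, 3, 4, 2 and 1 libraries. KLK11, found in human prostate and seminal plasma, had 2 annotated transcripts, and neither has a row in the deposited table. That table holds only transcripts above 0 in some library, since none of its 133722 rows is 0 throughout.

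Apart from the 4 reads of KLK4 in DSE testis, no full-length read of the deposited Iso-seq isoforms was assigned to a kallikrein in any of the 10 libraries. In prostate gland a count of 0 allows up to 11.4 RPM in BMI and 8.93 in DSE, or 6.56 and 5.64 per 1000000 of all full-length non-chimeric reads of these libraries. These limits, and the intervals given for reads, cover counting error only.

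**Figure D3:**
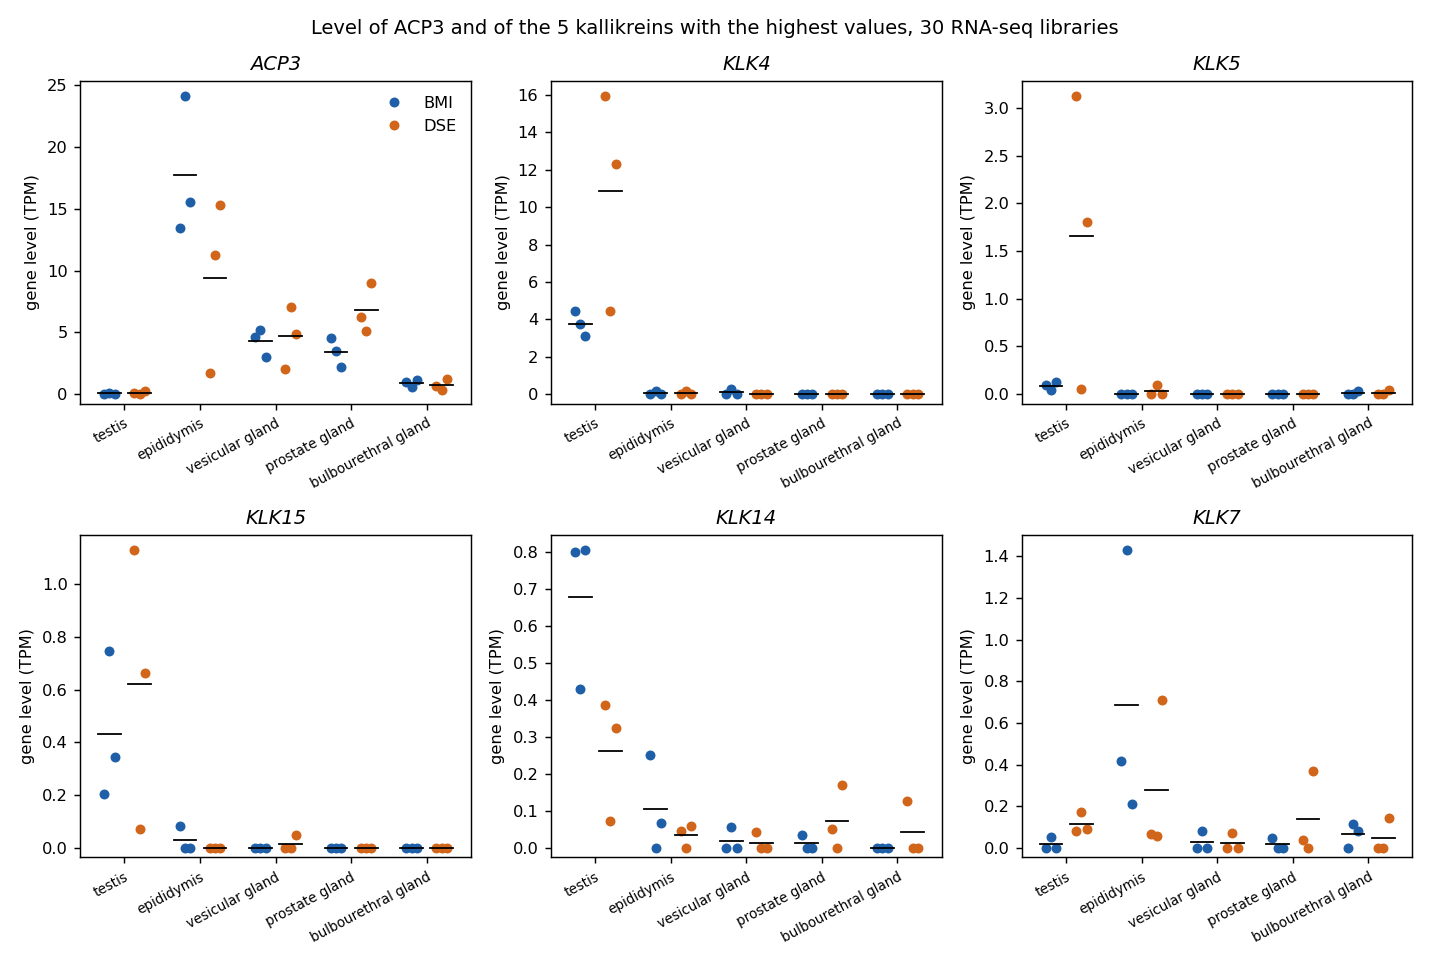
TPM of ACP3 and of the 5 kallikreins with the highest single values, by gland, with BMI libraries in blue, DSE libraries in orange and a line at the mean of each 3 libraries. ACP3 is highest in epididymis, at up to 24.1 TPM, and KLK4 in testis, at up to 15.95 TPM, while the prostate gland is at or near 0 for each kallikrein.

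ACP3, ENSSSCG00000011627 at chr13:73471855-73534008 on the plus strand, was present in the prostate. By RNA-seq its mean TPM was higher in epididymis, whereas the full-length reads given below were most frequent in prostate gland. In epididymis it had 13.5, 24.1 and 15.5 TPM in BMI and 1.67, 11.2 and 15.3 TPM in DSE. In prostate gland it had 4.52, 3.47 and 2.21 TPM in BMI and 6.23, 5.12 and 8.96 TPM in DSE. In vesicular gland it had 4.66, 5.17 and 2.99 TPM in BMI and 2.07, 7.07 and 4.87 TPM in DSE. The epididymis exceeded all prostate libraries in 5 of 6 libraries, and the ranges of prostate and vesicular gland overlapped. The bulbourethral gland had 0.346 to 1.23 TPM and the testis 0 to 0.272 TPM, so that neither overlapped with the prostate. Mean levels were 13.6 ± 7.29 TPM in epididymis, 5.08 ± 2.35 in prostate gland, 4.47 ± 1.75 in vesicular gland, 0.821 ± 0.341 in bulbourethral gland and 0.0873 ± 0.0967 in testis (SD, n = 6 each). With size factors, given below, the order of prostate and vesicular gland turned.

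Neighbours in this order did not all differ. By limma with Benjamini-Hochberg adjustment, ACP3 in prostate gland was lower than in epididymis by a log2 difference of -1.09 (SE 0.318, adjusted p = 0.00763), in a contrast where 17.7% of all genes were called lower. The exact permutation test, two-sided, gave p = 0.0649. With size factors in place of TPM alone, which move the median of all genes in this contrast from -0.38 to -0.05, the difference was -0.63 and no longer called (adjusted p = 0.0611). Epididymis exceeded vesicular gland by 1.22 (adjusted p = 0.00198, 34.6% of genes called higher), and by 0.27 with size factors (adjusted p = 0.470), where the median of all genes moved from 0.74 to 0.05.

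Prostate and vesicular gland differed by 0.13 (95% interval -0.53 to 0.79, limma, adjusted p = 0.878, 14.8% of genes called). With size factors that difference was -0.36, so its direction is not settled. The differences to the lowest glands were larger. Prostate gland exceeded bulbourethral gland by 1.67 (adjusted p = 0.00045, 2.01% of genes called higher) and testis by 2.40 (adjusted p = 2.7e-07, 12.4% called higher), and the exact permutation test against bulbourethral gland gave p = 0.00216, the smallest possible. Epididymis and vesicular gland also exceeded bulbourethral gland, by 2.76 and 1.54, where 15 and 4.13% of genes were called higher. They exceeded testis by 3.49 and 2.27, where 21.6 and 8.03% were called higher. Bulbourethral gland and testis differed by 0.73, which is under the threshold of 1 (adjusted p = 0.0465, 49.1% of genes called).

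The call between prostate gland and epididymis was lost without BMI epididymis replicate 2 (-0.970), DSE epididymis replicate 2 (-0.938), DSE epididymis replicate 3 (-0.835) or BMI prostate gland replicate 3 (-0.982), with adjusted p-values between 0.0241 and 0.0339. The lowest epididymis value, 1.67 TPM, came from DSE replicate 1, and the highest, 24.1 TPM, from BMI replicate 2, the library with the highest sum of epididymis markers. DSE epididymis replicate 1 also had the lowest sum of its gland over the kinin, inhibitor and acid phosphatase genes described below and over the luminal epithelium and leukocyte markers (1014 and 11.2 TPM, against medians of 1395 and 74.8). Without it, ACP3 in prostate gland minus epididymis was -1.49 and DSE minus BMI in epididymis -0.37. In the paper's quality control, DSE epididymis replicate 1 had the lowest median transcript integrity number of all RNA-seq libraries. It also had the largest share of unmapped reads. The part of RNA integrity, or of these libraries' makeup, in the level of ACP3 was not tested. Without BMI prostate gland replicate 2 and BMI epididymis replicate 1, the 2 libraries outside the vesicular gland with the highest sums of its markers, the differences were -1.18 to epididymis and 0.12 to vesicular gland.

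Breed differences of ACP3 were not called in any gland, at adjusted p-values of 0.424 or more (limma, Benjamini-Hochberg), where 0.596% of genes were called in prostate gland, 0.49% in vesicular gland, 0.298% in bulbourethral gland, 0.702% in epididymis and 4.78% in testis. The largest was in epididymis, -1.17 for DSE minus BMI (SE 0.450, adjusted p = 0.439, exact permutation p = 0.200). In prostate gland, all 3 DSE libraries lay above all 3 BMI libraries, with means of 6.77 ± 1.98 and 3.399 ± 1.16 TPM. That difference of 0.83 (SE 0.450) had an adjusted p of 0.424 and an exact permutation p of 0.1, the smallest that 3 against 3 libraries allow. With size factors it was 0.46, and BMI replicate 1 (5.52) then lay above DSE replicates 1 and 2 (5.36 and 5.41), so that the breeds overlapped. A difference of the breed effect between glands was not called by the F test (limma, adjusted p = 0.390, 2.94% of genes called).

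ACP3 has a long form, which in man and mouse codes for a membrane-bound enzyme, and a short form, which codes for the secreted one. In the pig annotation both share the first 10 exons to position 73510011. The long form then joins an exon that begins at 73528892, whereas the short form reads on. The junctions are shown with the last 15 shared bases in lower case and the bases that follow in capitals, from the plus strand of Sscrofa11.1.
ACP3 long form: cgagcaaccatgaagTTCTAAAGATCATCC
ACP3 short form: cgagcaaccatgaagGTACCAAGGACGTTA
The coding sequence is 1242 bases in the long form, ENSSSCT00000012724, and 1146 bases in the short form, ENSSSCT00000103559.

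Full-length reads of ACP3 were found in 3 glands. BMI and DSE prostate gland gave 13 and 24 reads, or 49.4 (exact Poisson 95% interval 26.3 to 84.4) and 71.4 (45.8 to 106) RPM. The vesicular gland gave 12 and 16 reads, or 40.8 and 50.3 RPM. BMI epididymis gave 10 reads, or 21.8 RPM (10.5 to 40.1), and DSE epididymis gave 0, which allows up to 12.96 RPM by the limit of 3 reads and 15.9 RPM by the exact Poisson interval. Testis and bulbourethral gland gave 0 in both breeds. Prostate gland thus had a higher RPM than epididymis in both breeds, whereas RNA-seq gave the higher mean in epididymis. Per 1000000 full-length non-chimeric reads of the whole library the values were 28.4 and 45.1 in prostate gland and 14.6 in BMI epididymis, and the count of 0 in DSE epididymis allows up to 5.54, so the order was the same. Of those reads, 42.7% were kept in the deposited isoforms in DSE epididymis and 57.6 to 67.1% in the other 3 of these libraries. The intervals of the 2 glands overlapped in BMI, and with 1 library per group there was no test.

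Of the 75 full-length reads of ACP3, 59 were the long form with 11 exons and 6322 bases, PB.4721.3, and 12 were the short form with 10 exons and 2341 bases, PB.4721.2. The other 4 reads belonged to 2 variants with 12 exons. The short form thus had 16.0% of the reads (Wilson 95% interval 9.40 to 25.9%). It had 8 of 28 reads in vesicular gland (28.6%, 15.3 to 47.1%), 4 of 37 in prostate gland (10.8%, 4.29 to 24.7%) and 0 of 10 in epididymis, which allows up to 27.8% by the Wilson interval. These intervals overlap.

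RNA-seq assigned a larger share to the short forms. It was 50.3 ± 17.5% of ACP3 TPM in prostate gland, 55.3 ± 15.6% in bulbourethral gland, 44.6 ± 6.88% in epididymis and 39.95 ± 7.87% in vesicular gland (SD, n = 6 each). In prostate gland the libraries ran from 25.01 to 68.0%. None of the 6 pairs of glands passed an exact permutation test, two-sided, with a lowest p of 0.0758, adjusted to 0.424. The transcript with the highest mean was the short ENSSSCT00000103559 in epididymis (6.24 TPM) and prostate gland (2.33 TPM). In vesicular gland it was the 12-exon PB.4721.5 (1.68 TPM), close to the short form (1.66 TPM). PB.4721.5 had 2 full-length reads in all, and its model holds exons of 1 and 12 bases. The 11-exon long form has 6322 bases in Iso-seq. In the annotation used for TPM it ends at position 73530011, with a spliced length of 2291 bases. That annotation also holds the 12-exon variants PB.4721.1 and PB.4721.5, which end at 73534008 and are counted with the long form. The effect of these differences on the shares was not tested.

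**Figure D4:**
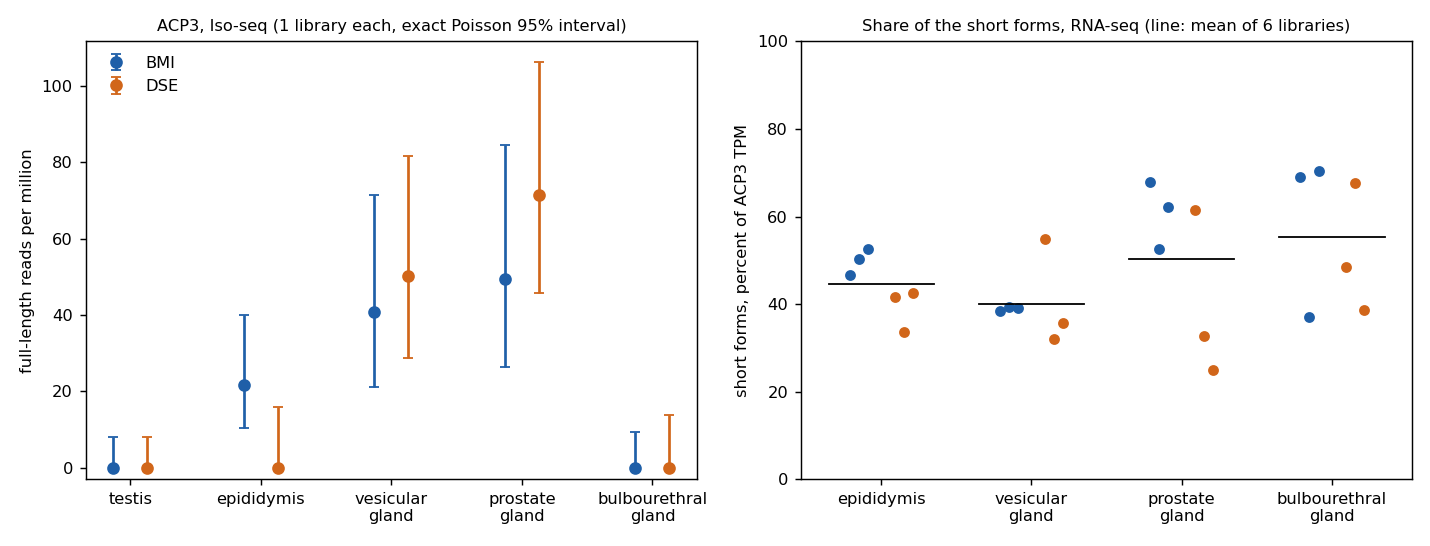
Left, full-length reads of ACP3 per 1000000 reads of the deposited Iso-seq isoforms in each breed and gland, with exact Poisson 95% intervals, highest in DSE prostate gland at 71.4. Right, the percent of ACP3 TPM in short forms in each RNA-seq library of 4 glands, blue for BMI and orange for DSE, with a line at the mean, and ranges that overlap between all glands.

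For TGM4, neither the merged annotation nor RefSeq holds a gene of that name. In man TGM4 lies between TMEM42 and ZDHHC3, and these neighbours are present in the pig on chromosome 13. The 42539 bases between them, chr13:28054892-28097430, hold 2 RefSeq genes, both long noncoding RNAs. In the deposited annotation 4 genes overlap the interval. One joins TMEM42 to the unnamed ENSSSCG00000058236 and reached 1 TPM in 4 libraries, with at most 0.686 TPM in prostate gland. The others were ENSSSCG00000063054, ENSSSCG00000058236 and a long gene added by the authors' assembly, at no more than 0.706 TPM in any prostate library.

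The classic products of the human prostate were taken as a list of 17 genes, which includes members above. In the 6 boar prostate libraries, 7 of them reached 1 TPM in every library, 3 in some libraries and 1 in none, 2 were at 0 or without a row, and 4 had no gene of that name. Those without a gene were KLK2, KLK3, TGM4 and AZGP1. KLK4 was at 0 and KLK11 without a row. TRPM8, the cold-sensing channel of prostate epithelium, had at most 0.00779 TPM. NPY, the neuropeptide Y gene, reached 1.22 TPM and STEAP2, a metalloreductase, 1.91 TPM, each above 1 TPM in 1 library. FOLH1, which codes for prostate-specific membrane antigen, had 0.196 to 1.57 TPM in prostate gland but 11.3 to 102 TPM in testis. The annotation gives FOLH1 and FOLH1B to the same gene.

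AZGP1, the zinc-alpha-2-glycoprotein of seminal plasma, is a case of naming. RefSeq places it at chr3:7867521-7874857 on the plus strand, inside the unnamed ENSSSCG00000007642, with which 3 of its 5 exons share an end. That unnamed gene had 46.0 to 156 TPM in prostate gland and 122 to 326 TPM in bulbourethral gland. It is not counted here as present, since the match is partial.

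The products that were present included the most abundant. MSMB, beta-microseminoprotein, had 88607 to 178304 TPM in prostate gland and at most 104 TPM elsewhere. HOXB13, a homeobox factor of the prostate, had 92.7 to 297 TPM in prostate gland and was listed at 0 in all libraries of epididymis, vesicular gland and bulbourethral gland. SPDEF, a factor of secretory epithelium, had 67.9 to 450 TPM in prostate gland and 521 to 846 TPM in bulbourethral gland. SLC45A3, the prostein gene, had 4.38 to 10.3 and 18.2 to 32.7 TPM in the same glands. For both, all bulbourethral libraries lay above all prostate libraries.

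ANPEP, an aminopeptidase, had 83.1 to 270 TPM in prostate gland and at most 74.6 TPM elsewhere. TMPRSS2, a membrane serine protease, had 50.7 to 147 TPM in prostate gland and 125 to 295 TPM in vesicular gland. BMI prostate gland replicate 2, which held the vesicular gland transcripts, was the highest prostate library for TMPRSS2 and the lowest for HOXB13 and SPDEF. The part of those transcripts in these levels was not tested.

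A gene that passed the filter on low values only through the gland where it is high has to differ from the others. The counts for this and the following lists are therefore over genes that reached 1 TPM in 3 libraries also without the gland of their highest mean, a rule added after the data were seen, beside the 15563 genes of all that do so. It left out KLK4, HOXB13 and NPY of the 11 classic products tested. Of the 8 others, 5 were called higher and 3 lower in prostate gland than in epididymis, where 4.51 and 19.6% of all such genes were called. Against vesicular gland 4 were higher and 1 lower (14.3 and 3.98% of all such genes), against bulbourethral gland 3 higher and 2 lower (2.41 and 6.59%), and against testis 6 higher and 1 lower (15.5 and 29.4%). Their median log2 difference was 1.52, 1.09, 0.46 and 2.32 in this order, where all such genes had -0.45, 0.41, -0.22 and -0.22. The products lower in prostate gland than in epididymis were ACP3, STEAP2 (-3.02) and FOLH1 (-2.04). Those lower than in bulbourethral gland were SLC45A3 (-1.60) and SPDEF (-1.29), TMPRSS2 was lower than in vesicular gland (-1.29), and FOLH1 was lower than in testis (-4.47). With size factors the counts were 5 and 2 (8.09 and 10.2% of all such genes), 4 and 1 (6.85 and 7.85%), 4 and 2 (3.8 and 4.04%), and 6 and 1 (19.9 and 24.8%).

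Of 10 genes with a value that code for proteases able to activate kallikreins, 6 had a median of at least 1 TPM in prostate gland. Those highest on average are given here. PRSS8 (prostasin) had 93.0 to 201 TPM, ST14 (matriptase) 71.2 to 189, HPN (hepsin) 35.6 to 92.2 and CTSC (cathepsin C) 20.7 to 89.9 TPM. Of 6 such genes counted, 1 was called higher and 2 lower in prostate gland than in epididymis (4.51 and 19.6% of all genes). Against vesicular gland 2 were higher (14.3%), against bulbourethral gland none was called either way (2.41 and 6.59%), and against testis 3 were higher and 1 lower (15.5 and 29.4%). Testis, where KLK4 was found, had at most 0.584 TPM of PRSS8, 4.61 of ST14 and 3.13 of HPN, but 76.8 to 891 TPM of CTSC. With size factors the counts were 2 and 1 against epididymis (8.09 and 10.2% of all genes), 1 higher against vesicular gland (6.85%), and 5 and 1 against testis (19.9 and 24.8%).

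Inhibitors of kallikreins were counted by the same rule, and the 2 lists were not compared by a test. SPINT2, an inhibitor of matriptase and hepsin, had 413 to 796 TPM in prostate gland. SERPINA1 had 8.83 to 78.3, A2M 9.65 to 37.3 and WFDC2 2.34 to 19.9 TPM there. A2M (alpha-2-macroglobulin) was at 1466 to 2696 TPM in testis and at most 97.3 TPM elsewhere. Of 8 inhibitors counted, none was called higher and 2 lower in prostate gland than in epididymis (4.51 and 19.6% of all genes). Against vesicular gland 4 were higher and 1 lower (14.3 and 3.98%), against bulbourethral gland 1 and 2 (2.41 and 6.59%), and against testis 5 and 2 (15.5 and 29.4%). With size factors 2 were higher and 1 lower than in vesicular gland (6.85 and 7.85% of all genes), and 5 and 1 than in testis (19.9 and 24.8%).

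In the kinin system, on which KLK1 acts, the genes highest on average were CPE (carboxypeptidase E), ACE (kininase II), ECE1 and MME. In prostate gland they had 2.16 to 21.8, 7.51 to 11.4, 23.7 to 49.6 and 2.10 to 40.3 TPM. Of 8 genes counted, 5 were called lower in prostate gland than in epididymis (19.6% of all genes) and 4 lower than in bulbourethral gland (6.59%), and none was higher in either (4.51 and 2.41%). Against vesicular gland 2 were higher (14.3%), and against testis 1 was higher and 2 lower (15.5 and 29.4%). With size factors 1 was higher and 4 lower than in epididymis (8.09 and 10.2% of all genes), 2 higher and 2 lower than in testis (19.9 and 24.8%), and 2 lower than in bulbourethral gland (4.04%).

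Substrates and crosslinking enzymes of the coagulum were described in the same way. No gene was named SEMG1 or SEMG2, the semenogelins cut by KLK3. FN1 (fibronectin), also a KLK3 substrate, had 1677 to 2562 TPM in vesicular gland and 5.59 to 1124 TPM in prostate gland, where the highest value belonged to BMI replicate 2 with its vesicular gland transcripts. PROCR, the receptor of protein C, stood in the same list but was not shown here to be a substrate of the coagulum. It had 0.780 to 3.65 TPM in prostate gland. Of these 2 genes, FN1 was called lower in prostate gland than in vesicular gland (-6.23, with 3.98% of all genes called lower) and higher than in testis (2.84, 15.5% called higher), and PROCR lower than in epididymis (-2.90, 19.6% called lower).

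Among the other transglutaminases, TGM2 (tissue transglutaminase) had 23.8 to 88.0 TPM in prostate gland, F13A1 (the catalytic subunit of factor XIII) 1.62 to 13.3, TGM3 0.233 to 3.94 and EPB42, an inactive relative, 0.0275 to 0.492 TPM. Of 3 counted, TGM2 was called higher in prostate gland than in bulbourethral gland (1.37, with 2.41% of all genes called higher) and F13A1 higher than in vesicular gland (1.94, 14.3%). TGM3 was lower than in epididymis (-1.72, 19.6% of all genes called lower), and this call did not hold with size factors.

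Among acid phosphatases and the adenosine pathway, with 17 genes tested, the highest on average were ADORA3 (an adenosine receptor), ALPL (alkaline phosphatase), ACP1 and ACP6. ACP1, a cytosolic low molecular weight phosphatase, had 19.5 to 33.2 TPM and ACP6, a lysophosphatidic acid phosphatase, 9.66 to 22.1 TPM in prostate gland. On the TPM scale both were above ACP3 there. ADORA3 had 1.92 to 8.72 TPM in prostate gland and 117 to 555 in testis, and ALPL 0.181 to 1.31 in prostate gland and 201 to 804 in epididymis. Of 16 counted, 2 were called higher and 5 lower in prostate gland than in epididymis (4.51 and 19.6% of all genes), 1 and 1 against vesicular gland (14.3 and 3.98%), 2 and 4 against bulbourethral gland (2.41 and 6.59%), and 3 and 6 against testis (15.5 and 29.4%). With size factors 3 were lower than in epididymis (10.2% of all genes) and 5 than in testis (24.8%).

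The genes whose pattern was most like that of a member over the 30 libraries were sought among 13900 genes with a symbol by Pearson correlation of log2(TPM + 1). For ACP3 they were CARNMT1 (r = 0.93), PGAP1 (0.92) and HIF1A (0.92), all with their highest median in epididymis. For KLK4 they were MCHR2 (0.99), CYP2D6 (0.98) and ALOX12B (0.98), all with their highest median in testis. The 30 points share glands and library makeup, and such values describe the gland pattern.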

How the data were processed

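RNA-seq and Iso-seq data of 5 glands of BMI and DSE boars were analysed. Per the labels the genome build is susScr11, and Salmon 1.9.0, STAR 2.7.10a and Bowtie 1.3.1 are named in the submitters' processing notes. The methods give poly-T selection for RNA-seq, whereas the labels speak of rRNA depletion. The deposited TPM were computed by the authors with salmon on Ensembl transcripts merged with Iso-seq isoforms. The deposited Iso-seq counts are numbers of full-length reads per isoform and library, which the authors clustered, aligned, collapsed and classified with SQANTI3, without normalization. They hold the reads of the final isoforms, not all reads of a library.

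Transcript TPM were summed by gene. Genes that reached 1 TPM in 3 or more libraries (19796 of 35552) were fitted as log2(TPM + 1) with limma 3.58.1 in R 4.3.3, with empirical Bayes and a trend, on 10 means of breed and gland. Contrasts were 10 pairs of glands, 5 breed differences (DSE minus BMI) and an F test of breed differences between glands. A fold of 2 and an adjusted p (Benjamini-Hochberg) below 0.05 made a call. Single values were compared by exact permutation tests, read counts have exact Poisson and shares Wilson 95% intervals, and 3 reads were taken as the limit of a count of 0. In simulated data, judged by adjusted p alone, limma recovered 54% of genes with a log2 change of 1 between 2 glands and 94% at a change of 2. Between breeds in vesicular gland it recovered 80% at 2 and 95% at 4, and no smaller breed change was simulated. The F test recovered 43% at 2 and 87% at 4. False calls made up 3.90, 3.85 and 7.14% of the calls, in this order. Differences near 1 can thus be missed. Sequences and RefSeq genes came from Sscrofa11.1.

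Members are all genes fitting the name rule. Other genes named are the classic prostate products, up to 4 genes of highest mean in each other list, and the 3 most alike in pattern. Members and lists were chosen with earlier results of these data known. Small RNA data were not used here. Alternatives were another pseudocount, no filter, size factors, Ensembl transcripts alone (their TPM in the same quantification), no trend, fewer libraries and a replicate block. One gene of the lists of prostate products and markers is not reported here and was left out of their counts and sums.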

Additional observations from a re-analysis of the deposited data

Results flagged for a closer look

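For the members and the classic prostate products, 21 groups of 6 libraries of 1 gland were tested for a library far from the others by Dixon's ratio, and 4 had one, whereas chance gives about 1 in 20. The highest STEAP2 level in prostate gland, 1.91 TPM, came from DSE replicate 2. TMPRSS2 had its highest prostate level, 147 TPM, in BMI prostate gland replicate 2. The same library had the lowest HOXB13, 92.7 TPM, and it is the one with 301319 TPM of vesicular gland markers, whose part in these levels was not tested. For the short forms of ACP3 in vesicular gland, the highest share, 55.0%, came from DSE replicate 1.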

How the results depend on the processing

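Depth limits what Iso-seq can show in prostate gland, where a count of 0 allows the levels given in the report, and TPM carry no depth. Deviations of libraries with the same breed and replicate number in different glands had a mean correlation of 0.0486 over 60 pairs (-0.298 to 0.390, 21 above 0.1), against -0.0248 over 120 pairs of different number (18 above 0.1). The rule for pairing asked that every pair be above 0.1, so the numbers were not taken to pair the samples. So strict a rule cannot show that the libraries came from different animals, and the tests treat them as separate. The replicate block used the replicate number, which both breeds share, so it did not stand for single animals and cannot show the effect of pairing within an animal. It changed no call of a member. With the block, limma gave an adjusted p of 0.00741 for ACP3 in prostate gland minus epididymis and of 0.00329 for KLK4 between breeds in testis. No fusion isoform carries a member, so that alternative was not run. Of the members' results, 6 lost and 1 gained a call outside the alternatives that leave out 1 library, and 6 and 1 among those; their values stand in the report, except the breed by gland test of KLK4, which is not given because it passed the filter only through testis, and ACP3 in prostate gland minus epididymis with Ensembl transcripts alone (-0.97) or only those glands (adjusted p = 0.0760), in bulbourethral gland minus testis with a pseudocount of 0.1 TPM (2.33, called) and in epididymis minus vesicular gland without DSE epididymis replicate 3 (0.966). With size factors, ACP3 in vesicular gland was 7.18 instead of 4.47 TPM, and per 1000000 non-chimeric reads of the whole library, an alternative added after seeing the data, ACP3 in DSE prostate gland was 45.1 instead of 71.4 RPM. The cause of these changes was not tested.

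Counts of genes called moved by over 1.5 times as follows. Ensembl transcripts alone gave 2666, 1729 and 5713 for prostate gland against epididymis, vesicular gland and testis (4226, 2930 and 9682 in the report), 4386, 2670 and 6086 for epididymis against vesicular gland, bulbourethral gland and testis (7223, 4230 and 10098), 3528 and 6116 for vesicular gland against bulbourethral gland and testis (5492 and 10480), 5830 for bulbourethral gland against testis (9728), 378, 88, 25 and 56 between breeds in testis, epididymis, vesicular gland and prostate gland (947, 139, 97 and 118) and 194 for the F test (582). A pseudocount of 0.1 TPM gave 4592 for prostate against vesicular gland, 540 and 158 between breeds in testis and vesicular gland and 279 for the F test. No filter gave 1058 for the F test. Size factors gave 3014 for epididymis and 3286 for bulbourethral gland against vesicular gland and 183 between breeds in vesicular gland. They also moved the share of calls that were higher in the first gland from 17.2 to 39.8% for prostate gland minus epididymis, from 76.8 to 45.3% for prostate minus vesicular gland, from 26.3 to 46.6% for prostate minus bulbourethral gland, from 94.7 to 56.7% for epididymis minus vesicular gland, from 70.4 to 59.8% for epididymis minus bulbourethral gland, from 14.9 to 54.0% for vesicular minus bulbourethral gland and from 15.2 to 33.9% for vesicular gland minus testis. Between breeds it moved from 35.1 to 61.2% in vesicular gland and from 83.1 to 47.8% in prostate gland. Fits of 1 gland gave 39, 0, 3, 17 and 5 between breeds in testis, epididymis, vesicular, prostate and bulbourethral gland (limma, with 483 genes at an unadjusted p under 0.05 in epididymis, and 59 calls in bulbourethral gland in the report). Leaving out both libraries with vesicular gland transcripts, an alternative added after seeing the data, gave 273 and 175 between breeds in epididymis and vesicular gland. Leaving out 1 library at a time gave 507 to 1568, 78 to 277, 49 to 163, 65 to 154 and 39 to 73 between breeds in the 5 glands in the order above, and 357 to 1176 for the F test. Pairs of glands stayed within 1.5 times.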

Other observations

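Just past the 3′ end of KLK1, 4 unnamed genes that the authors' assembly added to the annotation had values in testis. They were looked at after their values were seen. The 3 on the minus strand, which share the span chr6:55558626-55563847, had medians of 2.92, 39.3 and 13.2 TPM in testis, and the one on the plus strand, chr6:55563888-55570443, had 18.1 TPM. All 4 reached 1 TPM in the 6 testis libraries and in no other, with at most 0.149 TPM outside testis. In the same testis libraries KLK1 had at most 0.286 TPM. Like KLK4, they were listed at 0 in every prostate library, and no test was made on them.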
